A study of Mus musculus with 4 samples.

Results

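The cytosolic ribosomal protein genes of mouse embryonic stem cells (ESCs) were examined in wild-type (WT) cells and in cells that lack Snf2l. They were taken as every protein-coding gene whose symbol starts with Rpl or Rps and a digit, together with Rplp0, Rplp1, Rplp2 and Rpsa, without pseudogenes and without the Rps6k kinases, and with at least 10 counts in every library. Of 106 symbols of this form, 10 were kinases and 7 were not protein-coding, and all 89 that remained had 10 counts or more in each library, out of 24594 genes in the table. The 89 genes hold 77 canonical ribosomal protein genes, 46 of the large and 31 of the small subunit, with 8 paralog copies, 3 retrocopies and Rps19bp1, a partner that binds a ribosomal protein. The symbol rule leaves out Fau, which codes for a ribosomal protein fused to a ubiquitin-like protein, and its values are given beside the 89.

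Poly(A) RNA was sequenced in 4 libraries of untreated 129S6/SvEvTac ESCs, 2 from WT and 2 from Snf2l knockout (KO) cells. Snf2l is the gene Smarca1, which encodes an ATPase of the ISWI chromatin remodelers. According to the methods, cells were grown in serum with LIF on gelatin and each deletion line is a CRISPR-Cas9 clone, so genotype and clone cannot be told apart. The methods also say that a single clone was chosen to represent each genotype, and the p-values measure only the spread between these libraries.

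Each cytosolic ribosome carries 1 copy of nearly every canonical protein, so these genes are known for being expressed in concert in dividing cells. Their mRNAs are short and abundant, and most begin with a run of pyrimidines at the cap through which growth signals control their translation. The mammalian genome also carries many processed pseudogenes of them, which are copies of the spliced mRNA at other places. Surplus ribosomal proteins that find no place in a subunit are known to be degraded, so that protein amounts can be buffered where mRNA levels are not.

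The libraries held between 13771642 and 15608803 counts. Smarca1 fell from 620 and 626 counts in WT to 37 and 31 counts in KO, a log2 fold change of -4.30 (SE 0.16, adjusted p = 2.65e-10 by edgeR). All 9 markers of ESCs were found and summed to between 4590 and 5190 CPM in each library. For these marker sums, CPM are counts per 1e6 of the library's total counts. Elsewhere, CPM are counts divided by the scaled library size, per 1e6. Markers of other cell types summed to far less. Fibroblast-like markers summed to between 11.3 and 13.2 CPM in WT and between 25.1 and 26.0 CPM in KO. Primitive endoderm-like markers summed to between 7.56 and 9.15 CPM and between 15.1 and 16.2 CPM, and neural-like markers to between 205 and 230 CPM and between 129 and 136 CPM. Mesoderm-like markers lay between 4.88 and 8.01 CPM. By edgeR at an adjusted p of 0.05, 4.0% of all tested genes were higher in KO and 5.21% were lower. Of tested chromosome 8 genes, 60.2% were lower. Of 9 tested ESC markers, 1 of them on chromosome 8, 1 was higher in KO and 1 was lower. In the same test, 2 of 5 tested fibroblast-like, 3 of 5 primitive endoderm-like and 1 of 3 mesoderm-like markers were higher in KO. Of the neural-like markers, 4 of 4 tested, 2 of them on chromosome 8, were lower. Of these lists, Dcn, Lum, Mesp1 and Neurog2 had 3 counts or fewer in every library. The part of other cell types in the results was not tested.

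The first comparison asked whether ribosomal protein genes changed between WT and KO. Few did. Of the 89 genes, 4 passed an adjusted p of 0.05 (quasi-likelihood F test of edgeR, Benjamini-Hochberg over 13840 genes), against 9.21% of all tested genes. Off chromosome 8, 2 of 86 passed (2.33%), against 6.22% of all tested genes there. Rpl21 was higher in KO, where 4.0% of all genes were higher, and 3 genes, among them Rpl13 and Rpl22l1, were lower, where 5.21% of all genes were lower. At the threshold of the study, a change of more than 1 on the log2 scale at an adjusted p under 0.01, 0 of the 89 were called and 0.99% of all genes were. An unadjusted p under 0.05 was reached by 8 of the 89 and by 22.2% of all genes, and DESeq2 called 3 of the 89 and 5.77% of all genes at an adjusted p of 0.05. Without KO replicate 1, 12 genes passed, 10 of them higher, where 13.7% of all genes passed.

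The sizes were small. Of the 86 genes on other chromosomes than 8, 79 differed by less than 1.2-fold, which held for 70.1% of all tested genes. That share covers chromosome 8 too and was not matched for level, while 62 of the 89 genes had a mean over 100 CPM. The median log2 fold change of these 86 was 0.04 and that of all tested genes off chromosome 8 was 0.01. By subunit, the median was 0.03 for the 46 large subunit genes and 0.06 for the 31 small subunit genes. The median SE of a ribosomal protein gene was 0.10, and the 95% interval lay within 1.5-fold either way for 77 of the 89. In bulk RNA, fewer cells that express a gene and less RNA per cell cannot be told apart.

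**Figure D1:**
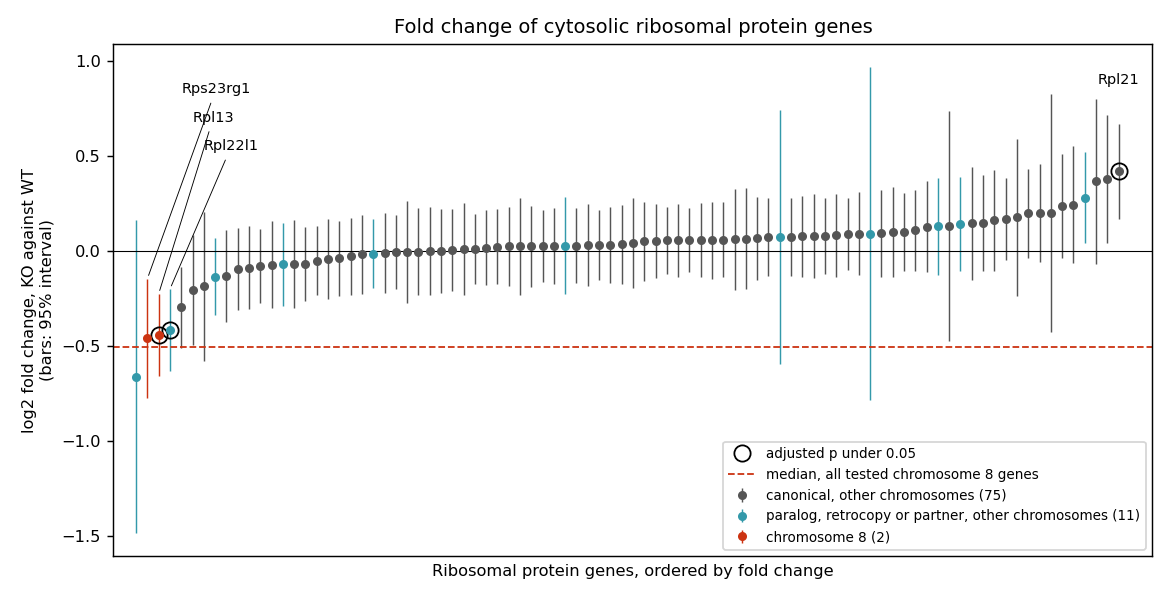
Log2 fold change, KO against WT, of the 86 genes on other chromosomes and of Rpl13 and Rps23rg1 in order of size, with 95% intervals from edgeR (2 libraries per genotype). Rpl13 and Rps23rg1 lie near the dashed median of all tested chromosome 8 genes, -0.51, and most other genes lie near 0. Circles mark Rpl13, Rpl22l1 and Rpl21, which had an adjusted p under 0.05.

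Both called genes that are not on chromosome 8 code for large subunit proteins or their copies. Rpl22l1 (Entrez gene 68028, chr3:28805508-28807424) is the paralog of Rpl22, which codes for an RNA-binding protein of the large subunit. It had 81.0 and 85.9 CPM in WT and 57.8 and 67.1 CPM in KO. The KO libraries lay below both WT libraries, and the change came to -0.42 on the log2 scale (SE 0.10, adjusted p = 0.0159 in edgeR). The parent gene Rpl22 had 353.9 and 394.0 CPM in WT and 366.2 and 407.7 CPM in KO, which is a log2 fold change of 0.05 (SE 0.09). Without WT replicate 2 or without KO replicate 1 the adjusted p of Rpl22l1 became 0.137 and 0.0583.

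Rpl21 (Entrez gene 19933, chr5:146832890-146837032) had 19.98 and 21.2 CPM in WT and 28.9 and 26.2 CPM in KO, so that the groups did not overlap. The change came to 0.42 on the log2 scale (SE 0.12, adjusted p = 0.0355 in edgeR). The call was lost without WT replicate 1, without WT replicate 2 and without KO replicate 1, at adjusted p of 0.249, 0.105 and 0.0884, and also with DESeq2 at 0.127. Rpl21 shares 50-base words with 81 annotated pseudogenes, and how the authors' counting treated reads that match several places is not given in the sources used here.

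Among genes that were not called, the groups also failed to overlap for a few. In all, 4 genes had both KO libraries above both WT libraries, which 25.2% of all tested genes had, and 7 had both below, which 25.3% of all tested genes had. Besides the called ones, these were Rpl29, Rpl36 and Rpl39l above and Rpl15, Rps23, Rps23rg1 and Rps27l below. Rpl15, Rps23 and Rpl36 are named here after their values were seen. Rpl15 had 114.5 and 117.4 CPM in WT and 86.6 and 101.9 CPM in KO (log2 fold change -0.30, SE 0.10, edgeR adjusted p = 0.0800). Rpl36 had 13.2 and 9.92 CPM in WT and 16.1 and 13.8 CPM in KO (log2 fold change 0.38, SE 0.16, edgeR adjusted p = 0.171).

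The chromosome 8 genes were then set apart, to see whether ribosomal protein genes follow the lower level of that chromosome in the KO line. Their levels lay near it. The 753 tested genes of chromosome 8 had a median log2 fold change of -0.51, or 70.4% of the WT level, and 60.2% of them were called lower, while the medians of the other autosomes and of X lay between -0.09 and 0.09. Of the ribosomal protein genes there, Rpl13 was called lower and Rps23rg1 had a fold change of like size without passing the test.

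Rpl13 (Entrez gene 270106, chr8:123102350-123105244) encodes a protein of the large subunit. Of its 50-base words, 80.3% were found in transcripts of genes elsewhere, and it shared words with 15 annotated pseudogenes. Its counts may therefore not come from the chromosome 8 locus alone. Rpl13 had 90.7 and 105.2 CPM in WT and 69.6 and 74.6 CPM in KO, with no overlap. The fitted KO level was 73.5% of WT, a log2 fold change of -0.44 (95% interval -0.66 to -0.23, edgeR adjusted p = 0.0112). Against the chromosome 8 median it differed by 0.06 (95% interval -0.15 to 0.28, adjusted p = 0.792). The 99 tested genes within 5 Mb of it had a median of -0.51, and 62.0% of the 753 chromosome 8 genes had a lower fold change than Rpl13. Its call was lost without WT replicate 2, at an edgeR adjusted p of 0.209.

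Rps23rg1 (Entrez gene 546049, chr8:3567998-3584776) is an expressed retrocopy of Rps23, a gene of the small subunit on chromosome 13. It had 12.1 and 12.3 CPM in WT and 9.56 and 8.13 CPM in KO, again with no overlap. Its log2 fold change of -0.46 (95% interval -0.78 to -0.15) had an edgeR adjusted p of 0.0651, and it differed from the chromosome 8 median by 0.04 (95% interval -0.27 to 0.36). Rps23 itself had 12.8 and 13.4 CPM in WT and 11.4 and 11.3 CPM in KO (log2 fold change -0.21, SE 0.14, edgeR adjusted p = 0.409). Of the 50-base words of Rps23 transcripts, 51.7% were found in transcripts of genes elsewhere, and no such share was available for Rps23rg1. The counts of both genes may therefore hold reads of other copies.

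In the test against the chromosome 8 median 4.78% of chromosome 8 genes passed, and neither Rpl13 nor Rps23rg1 did. Of the 753 genes there, 57.8% had a lower fold change than Rps23rg1. The intervals of Rpl13 and Rps23rg1 leave room for a partial offset of the chromosome's lower level, of at most 0.28 and 0.36 on the log2 scale.

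**Figure D2:**
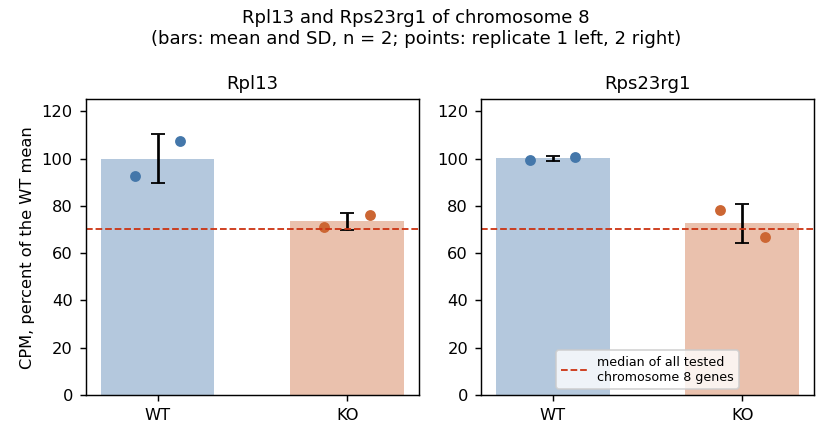
CPM of Rpl13 and Rps23rg1 as percent of the WT mean, with bars for the mean, error bars for the SD over 2 libraries and points for the libraries. Both KO bars stand within 10 percentage points of the dashed line at 70.4%, the median of all tested chromosome 8 genes.

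**Figure D3:**
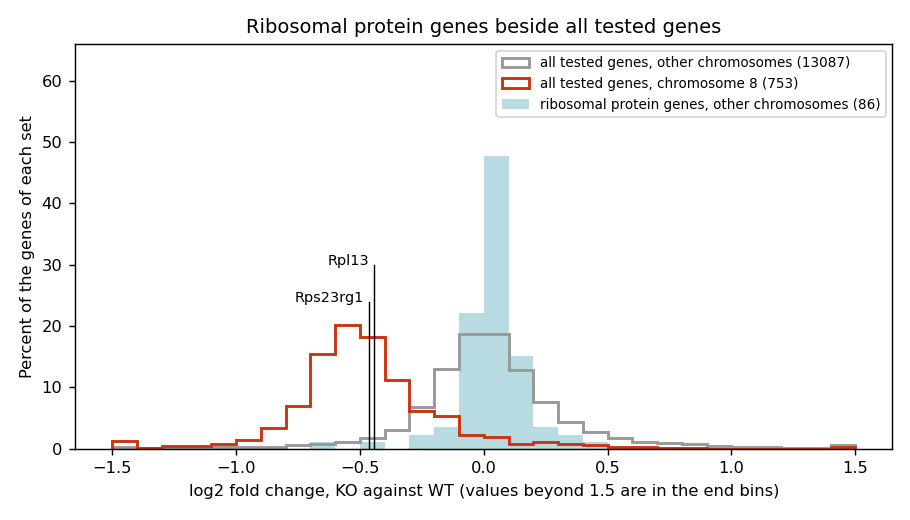
Percent of genes in each 0.1-wide bin of the log2 fold change, KO against WT, for tested genes on other chromosomes (13087), tested genes on chromosome 8 (753) and the 86 ribosomal protein genes on other chromosomes. The ribosomal protein genes gather near 0, at a median of 0.04, and vertical lines mark Rpl13 at -0.44 and Rps23rg1 at -0.46.

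Of 6 listed genes of the same machinery on chromosome 8, 4 were called lower, near the share of 60.2% among all 753 tested genes of that chromosome. Nob1, the endonuclease that trims the end of 18S rRNA, had 200.5 and 221.0 CPM in WT and 136.8 and 145.6 CPM in KO (log2 fold change -0.58, edgeR adjusted p = 0.000957). Utp4 of the small subunit processome had a log2 fold change of -0.63 (edgeR adjusted p = 0.00029), and Abce1, the ATPase that splits ribosomes for recycling, one of -0.64 (edgeR adjusted p = 0.000262). Of the mitochondrial ribosomal protein genes there, Mrps31 was lower (-0.42, adjusted p = 0.0104) and Mrpl34 had -0.33 (adjusted p = 0.102). Eif4ebp1, the inhibitor of the cap-binding factor eIF4E, had -0.18 (adjusted p = 0.300).

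Off chromosome 8, where edgeR called 6.22% of all tested genes, few genes of the same pathway were called. Of 66 ribosome biogenesis genes tested there, 1 was lower and 0 were higher. The lower one was the nucleolar gene Mybbp1a, named here after its values were seen. It had 1353 and 1343 CPM in WT and 1143 and 1011 CPM in KO (log2 fold change -0.32, edgeR adjusted p = 0.0227). None of 48 translation factor genes, 76 mitochondrial ribosomal protein genes and 19 genes of growth and stress regulators was called by edgeR. With chromosome 8 included, an unadjusted p under 0.05 was reached by 8 of 68 biogenesis genes, 5 of 49 translation factor genes, 5 of 78 mitochondrial ribosomal protein genes and 3 of 20 regulators, against 22.2% of all tested genes. The medians off chromosome 8 were -0.01 for biogenesis genes, -0.01 for translation factors, 0.05 for mitochondrial ribosomal proteins and 0.02 for regulators.

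The next question was how the 89 genes varied between libraries of 1 genotype. In WT, 87 of the 89 genes were lower in replicate 1 than in replicate 2, with a median log2 difference of -0.19. In KO, 84 were lower in replicate 1, with a median of -0.19 again. Over all tested genes, 51.3% were lower in replicate 1 of WT and 49.5% in replicate 1 of KO. The difference between the WT libraries exceeded the genotype difference for 73 of the 89 genes and for 44.5% of all tested genes, although a difference between single libraries is set here against one between means of 2.

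The share of all counts that the 89 genes took moved in the same way. It was 2.80% and 3.17% in the WT libraries and 2.88% and 3.29% in the KO libraries. The means were 2.99% ± 0.27 in WT and 3.08% ± 0.29 in KO (SD, n = 2), with a two-sided exact permutation p of 0.667, where 0.333 is the smallest p that 2 libraries against 2 allow. The groups overlap, since each replicate 1 library lay below each replicate 2 library.

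Shorter genes in general leaned the same way. Among tested genes of at least 10 CPM on average and under 1000 bp, the median log2 difference of replicate 1 from replicate 2 was -0.16 in WT and -0.20 in KO, and among those of 4000 bp or more it was 0.05 and 0.08. The 19 ribosomal protein genes under 1000 bp had -0.25 and -0.20, and the 6 of 4000 bp or more had -0.19 and -0.24. Length here is the deposited gene length, which need not equal that of the mRNA, so these 6 need not have long mRNAs. Mitochondrial ribosomal protein genes had a median of -0.12 in WT and -0.15 in KO. The part of gene length or RNA quality in the difference between replicates was not tested.

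**Figure D4:**
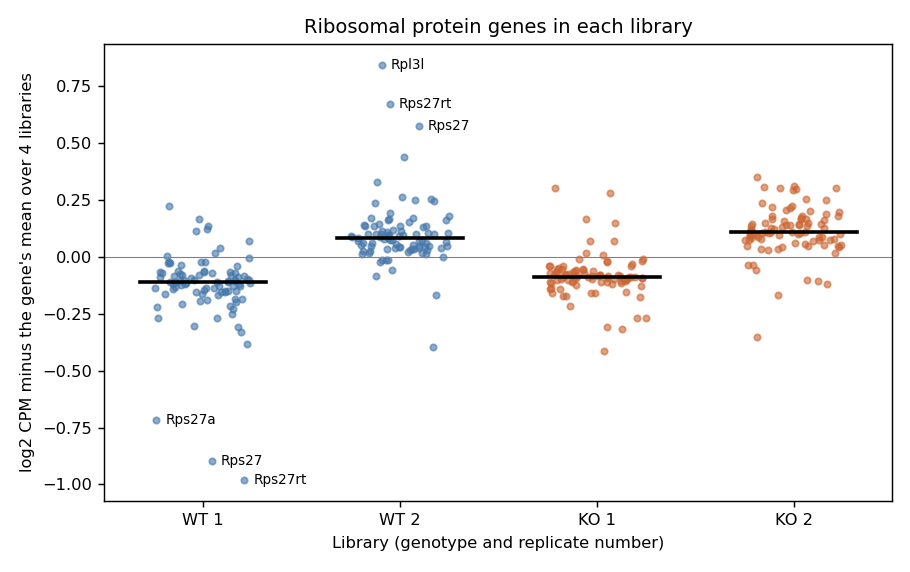
Log2 CPM of each of the 89 genes minus that gene's mean over the 4 libraries, 1 point per gene, with the median of each library as a black line. The medians of replicate 1 lie below 0 and those of replicate 2 above 0 in both genotypes, and Rps27, Rps27a and Rps27rt are the lowest points in WT 1.

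A group of related symbols stood out between the WT libraries. Rps27, a zinc finger protein of the small subunit, had 8.96 and 24.9 CPM in WT and 17.5 and 19.9 CPM in KO. Rps27a, which encodes ubiquitin fused to a small subunit protein, had 26.9 and 53.0 CPM in WT and 48.9 and 54.5 CPM in KO. Rps27rt, a retrocopy of Rps27 named here after its values were seen, had 7.64 and 24.01 CPM in WT and 15.2 and 18.5 CPM in KO. Of 10547 tested genes at 5 CPM or more, 6 differed by over 0.9 on the log2 scale between the WT libraries, and 3 of these 6 were Rps27, Rps27a and Rps27rt. Without WT replicate 2, where 6.33% of all genes were called, they were the 3 genes called among the 89, at log2 fold changes of 1.06 for Rps27 and 0.94 for Rps27a (edgeR adjusted p = 1.86e-05 and 6.03e-06), and with all libraries they had adjusted p of 0.843, 0.320 and 0.925.

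Rps27 and Rps27rt share sequence at their starts, which bears on how far their counts are separate. The first 30 transcribed bases of both, in RefSeq's annotation of GRCm38.p6, are shown with the run they share in capitals, which covers 29 of the 30 bases:
Rps27 (chr3:90213619-90213648, minus strand): cCTTTCCGGCGGTGACGACCTCCCTACGAG
Rps27rt (chr9:114982710-114982739, minus strand): CTTTCCGGCGGTGACGACCTCCCTACGAGa
Of the 50-base words of Rps27rt transcripts, 91.1% were found in transcripts of genes elsewhere, and of those of Rps27, 46.2%. Their values are therefore uncertain as separate levels, and they moved together between libraries. Rps27l, a further paralog known as a target of p53, had 180.6 and 188.3 CPM in WT and 156.0 and 179.5 CPM in KO (log2 fold change -0.14, adjusted p = 0.437).

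The other paralog copies are known from single tissues or have no settled role. Rpl3l, the muscle paralog of Rpl3, had between 14 and 35 counts per library, and its log2 fold change of -0.66 had a wide interval (-1.486 to 0.16). Rpl10l, which stands in for the X-linked Rpl10 in male germ cells, had 52.7 and 57.6 CPM in WT and 49.97 and 55.1 CPM in KO, and Rpl10 itself had 138.5 and 165.7 CPM and 151.8 and 157.4 CPM. Rpl39l, a copy of the X-linked Rpl39 that is high in testis, had 37.1 and 44.2 CPM in WT and 46.9 and 51.9 CPM in KO (log2 fold change 0.28, SE 0.11, edgeR adjusted p = 0.154), and Rpl39 had a log2 fold change of -0.07. Rpl36al, Rpl7l1 and Rpl32l had log2 fold changes of 0.03, -0.02 and 0.09, beside 0.20 for Rpl36a, 0.05 for Rpl7 and -0.04 for Rpl32. Rpl32l had 10 to 13 counts per library, near the limit of inclusion, and is a processed pseudogene in the GENCODE annotation. The next lowest in counts were Rpl3l and Rpl29.

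None of the genes listed for roles of their own in the ribosome or in signalling was called in this paragraph's set. The stalk genes, whose products recruit the elongation factors, had log2 fold changes of 0.01 for Rplp0, 0.03 for Rplp1 and 0.07 for Rplp2. Rpsa, also known as the laminin receptor gene, had 0.05. Rps6, the substrate of the S6 kinases, had 19.2 and 22.5 CPM in WT and 21.2 and 22.5 CPM in KO (log2 fold change 0.06, SE 0.12). Rpl5 and Rpl11, which with 5S rRNA bind Mdm2 and so stabilise p53, had 0.01 and 0.17. Rps4x, carried on the X chromosome, had 0.09 (SE 0.09), Fau had 0.19 (SE 0.12) and Rack1, the scaffold protein of the small subunit, had -0.06 (SE 0.09). Among the genes in this paragraph the adjusted p lay at 0.398 or above, and the largest of these fold changes was smaller than that gene's difference between the WT libraries.

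Levels per length differed widely between the genes. WT levels of canonical genes ran from 1.32 to 1692 CPM per kb with a median of 102.0 CPM per kb, and the median over all tested genes was 5.75 CPM per kb. The highest were Rplp1 at 1692 ± 173, Rpl4 at 1674 ± 75.3 and Rpl8 at 1356 ± 98.6 CPM per kb (SD, n = 2), of which Rplp1 and Rpl4 do not differ beyond their spread. The lowest were Rpl3l at 1.01 ± 0.54, Rpl29 at 1.32 ± 0.02 and Rpl32l at 1.82 ± 0.03 CPM per kb. Rpl3l and Rpl29 do not differ beyond their spread. Rpl11 at 4.85, Rpl21 at 6.06 and Rps6 at 13.1 CPM per kb were also low for proteins that every ribosome holds. Rps23 at 10.3 and Rpl17 at 12.3 CPM per kb, named here after their values were seen, lay below Rps6. These levels use the deposited gene length, which need not equal that of the mRNA.

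Pseudogene copies went along with low levels. Of the 86 genes with a protein-coding transcript in GENCODE, 82 shared at least 1 word of 50 bases with an annotated pseudogene elsewhere, with a median of 8 and a maximum of 120 pseudogenes, for Rpl7a. The median WT level was 180.0 CPM per kb for 25 genes with 0 to 4 such pseudogenes, 82.2 for 43 genes with 5 to 14 and 42.8 for 18 genes with 15 or more. The Spearman correlation over the 86 genes was -0.41, given as a description, since genes share reads and are not replicates. Rpl29 and Rpl21, each with 81 pseudogenes, were among the 6 lowest. Whether reads that match several places were discarded was not tested, and these levels are those of the deposited counts.

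**Figure D5:**
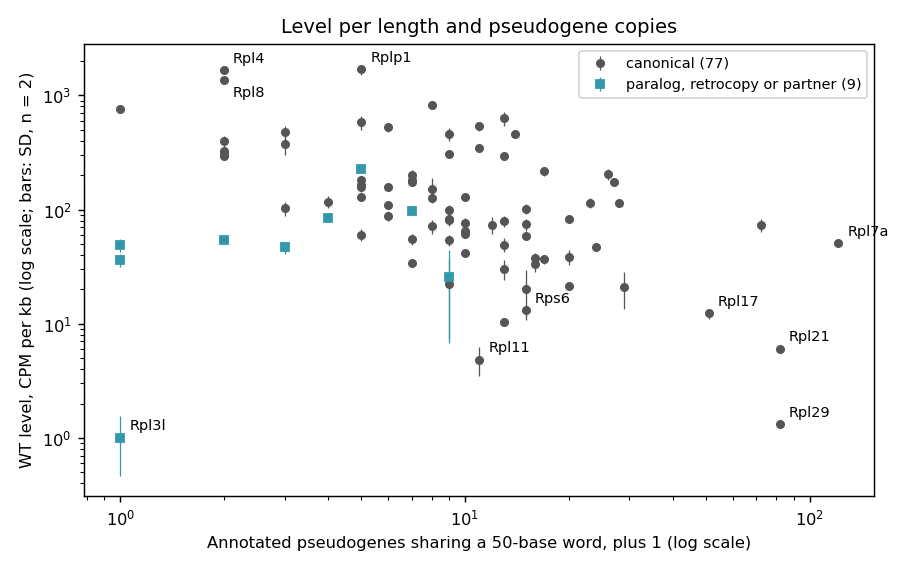
WT level in CPM per kb (mean and SD, n = 2) against the number of annotated pseudogenes that share a 50-base word with the gene, plus 1, both on log axes, for 86 genes. Levels fall from a median of 180.0 with 0 to 4 pseudogenes to 42.8 with 15 or more, and Rpl29 and Rpl21 lie at the lower right.

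The start sites show what the genes share in sequence. Of the 89 genes, 69 had a window of 250 bases before to 50 after the annotated start in RefSeq. In 15 of them (21.7%) the annotated start was a C followed by 4 pyrimidines, against 3.01% of all 27025 genes with a window, and in 37 (53.6%) such a run lay within 10 bases of the start, against 28.8%. The letters CTTTCC were found on either strand in 52.2% of the 69 and in 29.3% of all windows, CCGGAAG in 37.7% and 9.93%, AAGATGG in 14.5% and 7.28%, and TATAAA in 11.6% and 15.7%. Matches of CTTTCC may overlap the pyrimidine run at the start. Among the 10962 tested genes with a window the shares were 29.9% for CTTTCC, 19.4% for CCGGAAG, 8.16% for AAGATGG and 8.67% for TATAAA, so that TATAAA was less frequent in the 69 than in all windows and more frequent than in those of tested genes. A window from 15 bases before to 15 after the start is shown for Rpl13 of chromosome 8, for Rpl22l1, and for Rplp2, Rps6, Rpl28 and Rpl35 as members of the stalk and both subunits, chosen for their runs after the windows were seen, with the longest run of C and T in capitals:
Rpl13 (chr8:123102335-123102364, plus strand): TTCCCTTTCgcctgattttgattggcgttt
Rpl22l1 (chr3:28805493-28805522, plus strand): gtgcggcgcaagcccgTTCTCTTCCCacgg
Rplp2 (chr7:141447636-141447665, plus strand): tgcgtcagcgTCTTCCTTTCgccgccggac
Rps6 (chr4:86857353-86857382, minus strand): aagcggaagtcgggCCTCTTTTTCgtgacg
Rpl28 (chr7:4792950-4792979, plus strand): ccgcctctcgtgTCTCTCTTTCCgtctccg
Rpl35 (chr2:39005117-39005146, minus strand): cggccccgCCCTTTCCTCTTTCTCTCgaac
The run spans the annotated start in Rplp2, Rps6, Rpl28 and Rpl35. It lies wholly before it in Rpl13 and begins at the second transcribed base in Rpl22l1. These are matches of letters at annotated starts, and the starts used in these cells were not measured.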

How the data were processed

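The authors deposited raw read counts per gene of 4 poly(A) RNA-seq libraries, whole numbers without normalization. Their reads had been aligned to mm10 with QuasR and HISAT2, with bcl2fastq 2.17 named in the submitters' processing notes, and counted over UCSC Known Genes. The labels name a stranded TruSeq kit and the methods an unstranded one. Use of strand and handling of reads that match several places are not given in the sources used here, so genes that overlap another tested gene, 21 of the 89, may share reads with it.

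Entrez identifiers were matched to RefSeq symbols and positions in GRCm38.p6 for 24570 of 24594 genes. Counts were tested in R 4.3.3 with edgeR 4.0.16 (filterByExpr, TMM scaling, legacy glmQLFit and glmQLFTest, genotype as the only term, two-sided), with Benjamini-Hochberg adjustment over 13840 genes, as tested on simulated data. SE came from the fold change and the F statistic. CPM used TMM-scaled library sizes, except for the marker sums, which used total counts, and CPM per kb the gene length in the table. For the chromosome 8 test, the median of that chromosome was subtracted as an offset. Word sharing used GENCODE M21 transcripts. Alternatives were other scalings, filters, a replicate block, DESeq2 1.42.0, the fit of edgeR 4 and each library left out.

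Named genes were the chromosome 8 members, members past the study's threshold, the called members off chromosome 8, the 3 highest and 3 lowest per kb, the paralog copies with their parents, Rplp0, Rplp1, Rplp2, Rpsa, Rps6, Rpl5, Rpl11, Rpl10, Rps4x, Rps27a, Fau and Rack1, Smarca1, and chromosome 8 genes of the other lists. The members and lists were chosen with earlier results of these data known. Some items of the naming rule are not reported here.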

Additional observations from a re-analysis of the deposited data

How the results depend on the processing

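The count of 4 called genes stayed within 1.5 times under RLE, upper-quartile and library-size scaling, TMM without ribosomal protein genes, at least 10 counts in every library, edgeR 4 and DESeq2. It was 2 with at least 1 count in a library, 1 with the chromosome 8 shift removed (Rpl22l1), 0 at the study's threshold and between 3 and 12 with 1 library left out. Calls over all genes fell too, from 1274 to 1018 with at least 1 count in a library. They fell to 662 with the chromosome 8 shift removed, and they also changed with 1 library left out. The replicate number as a block gave 13 calls, 8 of them higher, and 3471 over all genes (25.1%) against 1274. The numbers were not shown to pair the libraries: with 2 pairs, the replicate differences of the genotypes correlated at 0.20 over all tested genes and 0.23 over the 89. Under the block Rps23rg1 passed at -0.47 (edgeR adjusted p = 0.00456).

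With 1 library left out, Rpl13 lay between -0.55 and -0.33 and Rps23rg1 between -0.58 and -0.35, passing without KO replicate 1; a lone library was assumed to vary like the other genotype. The cause was not tested. The median off chromosome 8 lay between -0.07 and 0.13 with 1 library left out, and the difference in share, 0.0972 percentage points, between -0.107 and 0.301, so neither has a direction. For the 37 other named genes, 460 of 481 alternative values kept their call, 8 lost and 13 gained one, and 40 changed sign with no call on either side. Depth limited Rpl3l, Rpl29 and Rpl32l, with 10 to 35 counts per library.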
